A study of Homo sapiens with 6 samples.

Results

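The genes described are the transcription factor SRF, its cofactors MRTFA and MRTFB, and 7 actin cytoskeleton genes they are known to drive: ACTB, ACTG1, VCL, MYL9, TAGLN, CNN2 and FHL2. They were chosen by name, with earlier results of these data known, and all 10 had a row among the 12793 rows of the deposited table. RNA was sequenced from 6 libraries of HCT15 cells, a human line established from colorectal cancer and grown in RPMI-1640 with serum. The control group was 3 libraries with a control guide (sgctrl, genotype WT), and the other group was 3 libraries with a guide against RBM15 (sgRBM15, genotype RBM15 Knockout), made with CRISPR/Cas9. The question of the study was what loss of RBM15, an RNA-binding protein of the m6A writing complex, does inside the tumour cell. The sources used here do not say whether the edited cells were a pool or a clone, or whether a group's libraries had separate cultures. The p-values therefore refer to library-to-library spread alone, and that spread may be technical.

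SRF (serum response factor) binds the CArG box, a short DNA element with C at one end, G at the other and a run of A or T between. MRTFA and MRTFB bind monomeric actin in the cytoplasm. When monomers are drawn into filaments, the MRTF proteins are released, enter the nucleus and act with SRF on genes of the actin cytoskeleton, including the actins and SRF itself. A second class of SRF cofactors, the ternary complex factors ELK1, ELK3 and ELK4, respond to ERK signalling and act with SRF on immediate early genes. MRTFA is also the fusion partner of RBM15 in a form of infant megakaryoblastic leukaemia. That fusion is background only and was not looked for here.

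The CArG box is the letter pattern that links SRF to its targets, so the start-site windows of the members were searched for it. The windows were those of RefSeq genes on GRCh38.p14, each covering 250 bases before and 50 bases after a start site, and 7 of the 10 members matched by symbol (all but ACTB, MYL9 and TAGLN). Either strand gives the same pattern for this box. An exact match was found for 4 of the 7 members, SRF, ACTG1, CNN2 and FHL2, and not in any window of MRTFA, MRTFB or VCL. Among all 35116 windows, 1.29% held an exact match, and by gene it was 1.6% of 27305 genes. The matches are shown 5′ to 3′ on the strand of the gene with the box in capitals. Those of ACTG1 and of the most downstream FHL2 start site are shown with short flanks, because part or all of the stretch is exonic in another annotated transcript. A match describes the letters only and does not show that SRF is bound there.

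SRF, chr6:43171214-43171268, plus strand: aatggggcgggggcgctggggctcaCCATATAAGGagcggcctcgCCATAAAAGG
ACTG1, chr17:81512874-81512903, minus strand: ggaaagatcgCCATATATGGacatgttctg
CNN2, chr19:1026494-1026553, plus strand: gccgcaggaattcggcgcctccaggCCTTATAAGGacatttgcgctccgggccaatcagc
FHL2, chr2:105438580-105438639, minus strand: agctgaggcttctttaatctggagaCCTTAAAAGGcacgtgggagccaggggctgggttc
FHL2, most downstream start site, chr2:105399091-105399120, minus strand: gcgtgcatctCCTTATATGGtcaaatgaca

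Of the 2 SRF windows, the upstream one held 2 boxes, whose first bases lay 30 and 10 bases before its start site, and the other held none. Single boxes began 94 bases before the start site of ACTG1 and 89 bases before that of CNN2. FHL2 had 4 start-site windows. Its boxes began 101 or 85 bases before a pair of neighbouring start sites that share the box and 59 bases before the most downstream one, and the window of the remaining site held none.

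RBM15, the gene the guide was aimed at, was higher in the libraries labelled knockout. Control libraries 1 to 3 had 5.97, 5.89 and 5.51 FPKM of it, knockout libraries 1 to 3 had 17.3, 18.5 and 18.03 FPKM, and all knockout values lay above all control values. FPKM divides fragments by transcript length and by how many mapped in that library. An mRNA level does not show whether a guide disrupted the protein, so directions depend on the labels: a gene that "rose" or "fell" had a higher or lower level in libraries labelled knockout, at an adjusted p of at most 0.05. Column sums were 402288 to 415057 FPKM, and read depth was not recoverable from the values. Of 10 colorectal epithelial markers 7 had a row, and their sum ran from 3803 to 3896 FPKM in controls and from 3481 to 3621 FPKM in knockout-labelled libraries. On the log2 scale VIL1 fell by 1.89, CDX2 by 1.06, KRT19 by 0.36, EPCAM by 0.35 and KRT18 by 0.15, KRT8 rose by 0.11, and CDH1 was not called (-0.051). Of 11 fibroblast and smooth muscle markers only COL1A1 and ACTA2 had a row, and these summed to 8.07 to 9.40 FPKM in controls and to 7.16 to 8.20 FPKM in knockout-labelled libraries. COL1A1 was not called (log2 difference 0.016). ACTA2 fell (log2 difference -0.18) and is also on the list of cytoskeletal targets of MRTF and SRF below. The part of these differences in the results below was not tested.

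The 10 genes differed widely in level. Over the 6 libraries ACTB, the gene of cytoplasmic beta-actin, ranked 5 of the 12793 rows by mean FPKM, and ACTG1, the gene of gamma-actin, ranked 25. CNN2 (calponin 2) followed at 167 to 176 FPKM, VCL (vinculin) at 39.3 to 42.2 FPKM, FHL2 at 31.7 to 34.8 FPKM and SRF at 15.9 to 19.8 FPKM. MRTFB, at 6.23 to 7.88 FPKM, lay above MRTFA, at 4.33 to 6.15 FPKM, in every library. TAGLN (transgelin), at 3.65 to 5.68 FPKM, overlapped MRTFA, so the order of that pair is not set beyond the spread. All other neighbours in this order had ranges that did not overlap. MYL9, the regulatory myosin light chain gene best known from smooth muscle, was lowest, at 0.240 to 0.896 FPKM, and ranked 12280.

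**Figure D1:**
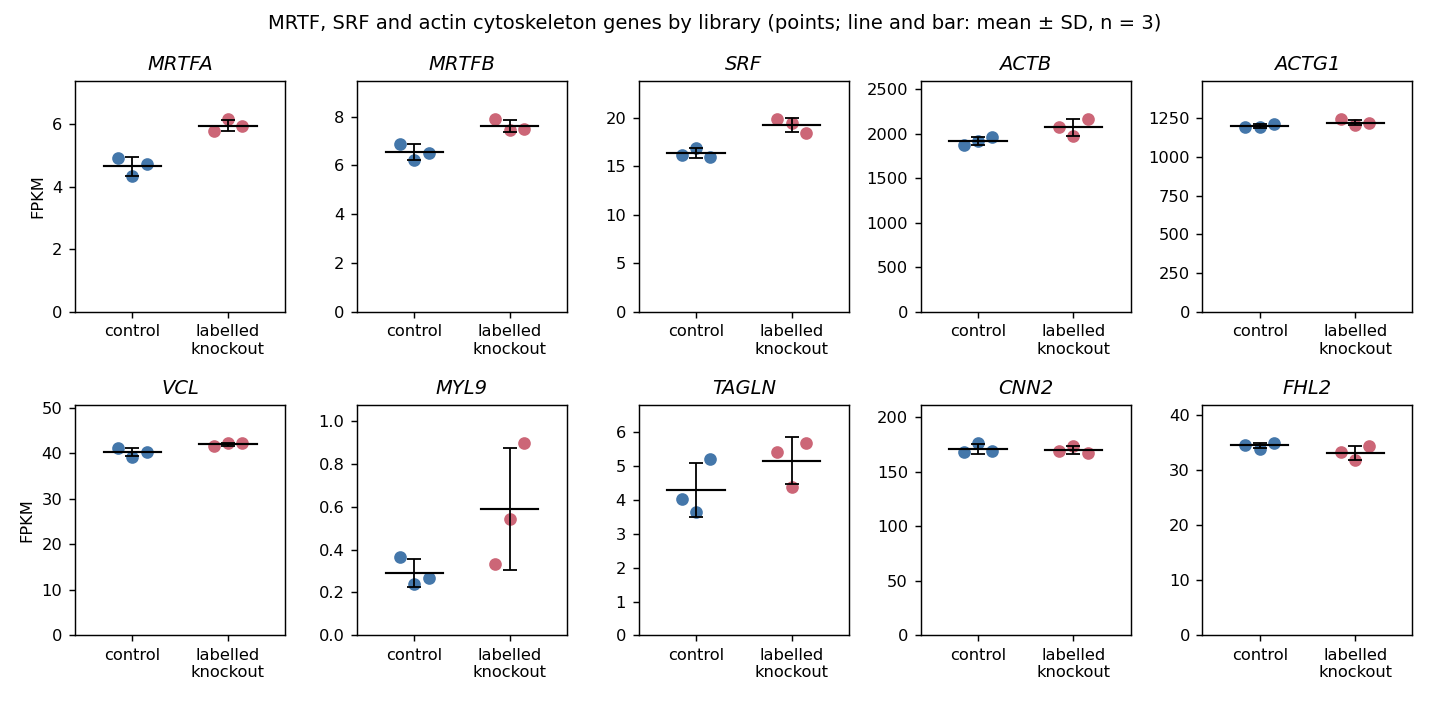
FPKM of each of the 10 genes in the 3 control libraries (blue) and the 3 libraries labelled knockout (red), on axes that start at 0; lines and bars are mean ± SD of 3 libraries. The groups separate for MRTFA, MRTFB, SRF, ACTB and VCL, and overlap for the others. Those of ACTB (highest control 1963 FPKM, lowest knockout 1975 FPKM) and of VCL (highest control 41.1 FPKM, lowest knockout 41.6 FPKM) are only just apart.

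Of the 9 members with a mean of at least 1 FPKM, which limma tested, 4 rose and 0 fell in the libraries labelled knockout: MRTFA, MRTFB, SRF and ACTB. Among all 11451 tested genes 54.5% changed, 25.3% rising and 29.2% falling, beside 44.4% of the 9 members. The groups did not overlap for 5 of the 9 (these 4 and VCL), all with the knockout libraries higher. Among all tested genes they did not overlap for 63% in either direction, and for 29.6% with the knockout libraries higher. At an unadjusted p under 0.05 limma likewise had 4 higher and 0 lower. The median log2 difference of the 9 was 0.11, against -0.018 over all tested genes. In whole-culture RNA, fewer cells that express a gene and less RNA per cell cannot be told apart. No label or file gives the protein level or the cellular position of the MRTF proteins.

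MRTFA, the actin-sensing cofactor, rose modestly. It lies on chromosome 22 at 40410281 to 40636702 (GRCh38, minus strand, ENSG00000196588). Control libraries 1 to 3 held 4.92, 4.33 and 4.72 FPKM and knockout libraries 1 to 3 held 5.79, 6.15 and 5.94 FPKM. Every knockout library was above every control library, and the means were 4.66 ± 0.303 and 5.96 ± 0.183 FPKM (SD, n = 3), a ratio of 1.28. On the log2(FPKM + 1) scale the difference was 0.30 (SE 0.061, 95% interval 0.16 to 0.44, limma adjusted p = 0.00528), and 13.8% of tested genes had a more positive difference. The call held in all 15 other settings. MRTFA shares 9 bp of exon with SGSM3 on the opposite strand, which stood at 24.8 ± 2.79 and 21.5 ± 4.31 FPKM and was not called (limma adjusted p = 0.265).

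MRTFB, the second MRTF gene, rose by less, and its call was less stable. It lies on chromosome 16 at 14071321 to 14266773 (plus strand, ENSG00000186260). Its level was 6.88, 6.23 and 6.50 FPKM in control libraries 1 to 3 and 7.88, 7.43 and 7.48 FPKM in knockout libraries 1 to 3. Here too the groups did not overlap, with means of 6.53 ± 0.328 and 7.60 ± 0.247 FPKM (SD, n = 3), or 1.16 times the control. On the log2 scale they differed by 0.19 (SE 0.054, 95% interval 0.064 to 0.32, limma adjusted p = 0.021). The call was lost without control library 2 (0.16, adjusted p = 0.0672), control library 3 (0.19, adjusted p = 0.0577) or knockout library 1 (0.17, adjusted p = 0.069), and once a trend over GC content and transcript length was taken out (0.098, adjusted p = 0.163).

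MRTFA was 41.6% ± 0.551 of the summed FPKM of the pair in the controls and 43.95% ± 1.49 in the libraries labelled knockout (SD, n = 3). The shares were 41.7%, 41.02% and 42.1% in control libraries 1 to 3 and 42.3%, 45.3% and 44.2% in knockout libraries 1 to 3. The groups did not overlap. With 3 against 3 libraries an exact permutation test (2-sided) cannot go below p = 0.1, which is the value it gave.

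SRF itself also rose. It lies on chromosome 6 at 43171299 to 43181507 (plus strand, ENSG00000112658). The control libraries held 16.2, 16.9 and 15.9 FPKM and the knockout libraries 19.8, 19.5 and 18.4 FPKM, in the order 1 to 3. Again every knockout value was above every control value. The means were 16.3 ± 0.515 and 19.2 ± 0.718 FPKM (SD, n = 3), which is 1.18 times the control. On the log2 scale they differed by 0.22 (SE 0.044, 95% interval 0.12 to 0.33, limma adjusted p = 0.00488). The call held in all 15 other settings. Its largest difference was 0.35, once the GC and length trend was taken out.

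ACTB, which encodes beta-actin and is often used as a reference gene, rose by a small amount, and the call, but not the direction, was lost in 7 of 15 other settings. It lies on chromosome 7 at 5527147 to 5563784 (minus strand, ENSG00000075624). Control libraries 1 to 3 held 1879, 1916 and 1963 FPKM, and knockout libraries 1 to 3 held 2080.0, 1975 and 2162 FPKM. The groups did not overlap, though knockout library 2 lay close to control library 3. The means were 1919 ± 42.1 and 2072.5 ± 93.5 FPKM (SD, n = 3), a ratio of 1.08, with a log2 difference of 0.11 (SE 0.037, 95% interval 0.023 to 0.197, limma adjusted p = 0.0392). The call was lost when any library but knockout library 2 was left out (0.079 to 0.13, adjusted p = 0.0543 to 0.107), and, with the difference still 0.11, without a variance trend (adjusted p = 0.0919) or a filter (adjusted p = 0.0516). The difference was 0.20 under quantile normalization and 0.21 with the GC and length trend taken out.

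ACTG1, the gamma-actin gene, did not pass the test. It lies on chromosome 17 at 81509971 to 81523847 (minus strand, ENSG00000184009). The groups overlapped, at 1192 to 1212 FPKM in the controls and 1210.1 to 1243 FPKM in the libraries labelled knockout. The log2 difference was 0.028 (95% interval -0.024 to 0.0797, limma adjusted p = 0.319). It was called higher on the TPM scale (0.052, adjusted p = 0.0455), under quantile normalization (0.067, adjusted p = 0.0211) and with the GC and length trend taken out (0.16, adjusted p = 0.000562). ACTB made up 61.5% ± 0.323 of the summed FPKM of both actin genes in the controls and 62.9% ± 1.01 in the libraries labelled knockout (SD, n = 3, exact 2-sided permutation p = 0.1, the smallest possible). That difference of 1.34 percentage points became 0.777 without knockout library 3. ACTB and ACTG1 have similar coding sequences, and the annotation names 10 ACTB and 20 ACTG1 pseudogenes, so the division of reads among these copies is uncertain.

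None of the tested focal adhesion and contractile targets, VCL, TAGLN, CNN2 and FHL2, passed the test. VCL, which ties integrin adhesions to actin, lies on chromosome 10 at 73995193 to 74121363. Control libraries 1 to 3 held 41.1, 39.3 and 40.4 FPKM, against 41.6, 42.2 and 42.2 FPKM in knockout libraries 1 to 3. These groups did not overlap, as was true of 63% of all tested genes, yet the log2 difference was only 0.061 (95% interval -0.014 to 0.14, limma adjusted p = 0.146). The sign turned with the GC and length trend taken out (-0.020, adjusted p = 0.593). AP3M1, on the opposite strand, shares 1109 bp of exon with VCL and rose from 30.5 ± 0.655 to 37.5 ± 4.88 FPKM. The sources used here do not say whether counting used strand, so reads of the shared stretch cannot be assigned.

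TAGLN, an actin-binding protein of smooth muscle and a classical SRF target, lies on chromosome 11 at 117199321 to 117204782. Control libraries 1 to 3 held 4.04, 3.65 and 5.20 FPKM, and knockout libraries 1 to 3 held 5.42, 4.37 and 5.68 FPKM. Control library 3 lay among the knockout values and knockout library 2 among the controls. The log2 difference of 0.22 was as large as that of SRF but its SE was 0.13 (95% interval -0.081 to 0.52, limma adjusted p = 0.182). Without control library 3 it was 0.34 and passed (adjusted p = 0.0463), and without control library 2 it was 0.13. PCSK7, on the opposite strand, shares 446 bp of exon with TAGLN and rose from 11.1 ± 0.263 to 16.4 ± 0.651 FPKM. The part of that overlap in the TAGLN values was not tested.

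MYL9 was below the filter and was not tested by limma. It lies on chromosome 20 at 36541484 to 36551447. The controls held 0.363, 0.240 and 0.265 FPKM and the libraries labelled knockout 0.334, 0.541 and 0.896 FPKM, in the order 1 to 3. Knockout library 1 lay within the range of the controls, and an exact permutation test (2-sided) returned p = 0.2.

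CNN2, an actin-binding calponin on chromosome 19 at 1026581 to 1039068, had means of 171 ± 4.46 and 170.2 ± 3.42 FPKM (SD, n = 3). Its log2 difference was -0.0083, with a 95% interval of -0.0804 to 0.064 (limma adjusted p = 0.834). FHL2, a LIM-domain protein that binds SRF and is itself an SRF target, lies on chromosome 2 at 105357712 to 105438513. Its means were 34.4 ± 0.513 and 33.1 ± 1.27 FPKM (SD, n = 3), a log2 difference of -0.056 (95% interval -0.15 to 0.036, limma adjusted p = 0.258). Of the 4 members with a CArG box in their window, SRF rose and ACTG1, CNN2 and FHL2 did not pass the test.

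**Figure D2:**
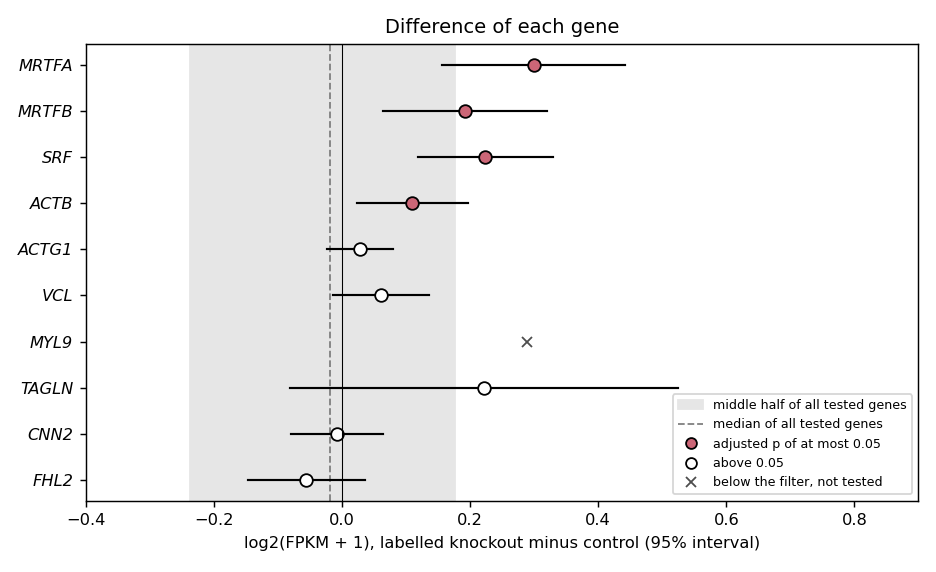
Difference of log2(FPKM + 1) between the libraries labelled knockout and the controls for each gene, with its 95% interval where it was tested. The grey band spans the lower to the upper quartile of all tested genes (-0.24 to 0.18) and the dashed line is their median. The points of MRTFA, MRTFB, SRF and TAGLN lie to the right of the band, but their intervals reach back into it. The point of ACTB lies within the band, and the intervals of ACTG1, VCL, TAGLN, CNN2 and FHL2 include 0. MYL9, below the filter and not tested, is a cross without an interval at 0.29, also to the right of the band.

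Other genes of the same pathway were taken from 4 lists, which were chosen with earlier results of these data known. Among SRF cofactors and MRTF regulators 7 of 11 were tested, and 4 rose and 0 fell (also 4 and 0 at an unadjusted p under 0.05). Their median log2 difference was 0.14, and 57.1% changed against 54.5% of all tested genes. Those that rose were ELK1, ELK3, ELK4 and MICAL2. The MRTF inhibitor genes tested, SCAI, PHACTR2 and PHACTR4, were not called. The ternary complex factor gene ELK1 rose from 20.8 ± 0.68 to 25.1 ± 1.33 FPKM and ELK3 from 6.23 ± 0.258 to 7.58 ± 0.368 FPKM. MICAL2, an enzyme that oxidises actin and is known to act on MRTF in the nucleus, rose from 4.49 ± 0.211 to 5.61 ± 0.4 FPKM.

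Of 40 other cytoskeletal targets of MRTF and SRF 33 were tested, and they went both ways: 12 rose and 8 fell (60.6% changed, against 54.5% of all tested genes, median log2 difference 0.061). THBS1, which encodes the matrix protein thrombospondin 1, rose from 5.37 ± 0.29 to 9.43 ± 0.249 FPKM. The tropomyosin gene TPM2 rose from 48.7 ± 1.73 to 67.9 ± 2.47 FPKM, and WDR1, a cofactor of cofilin in filament disassembly, from 79.7 ± 3.16 to 108.6 ± 7.16 FPKM. CCN2, a matricellular protein gene that also responds to YAP, fell from 13.9 ± 0.292 to 8.13 ± 0.389 FPKM. The focal adhesion adaptor gene TGFB1I1 fell from 9.05 ± 0.834 to 6.1 ± 0.257 FPKM. Without control library 1 the number that rose was 7.

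Of 13 immediate early targets that SRF shares with the ternary complex factors 11 were tested, and 3 rose and 7 fell (90.9% changed, against 54.5% of all tested genes, median log2 difference -0.17). The largest of the 3 rises, that of EGR3 (0.472 ± 0.111 to 1.73 ± 0.272 FPKM), passed the filter only through the group where it was high, and EGR3 was not tested without knockout library 1 or 3. FOS fell from 55.1 ± 0.259 to 8.41 ± 0.0257 FPKM, FOSB from 11.4 ± 0.509 to 1.14 ± 0.172 FPKM and EGR1, a zinc finger transcription factor gene, from 91.8 ± 1.28 to 44.7 ± 1.69 FPKM. FOSL1, another gene of the FOS family, rose from 16.6 ± 1.42 to 30.05 ± 2.49 FPKM. The nuclear receptor gene NR4A1 rose from 15.1 ± 2.27 to 21.7 ± 3.58 FPKM, a call lost on omitting knockout library 1 (0.48), knockout library 2 (0.39) or control library 1 (0.37). The number that rose was 2 without knockout library 2, knockout library 3 or control library 1, and 1 without knockout library 1. Whether this list differs from the cytoskeletal list was not tested. Because the list was chosen with earlier results of these data known, its share of changed genes is not an independent comparison.

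All 17 genes on the Arp2/3 and WAVE list, which act in the nucleation of branched actin, were tested, and 8 rose and 1 fell. Of these 17, 52.9% changed, against 54.5% of all tested genes, with a median log2 difference of 0.023. The Arp2/3 subunit gene ARPC5L rose from 38.9 ± 2.43 to 48.6 ± 3.27 FPKM, ACTR2 from 108.9 ± 0.623 to 125 ± 2.17 FPKM and the WAVE complex gene CYFIP1 from 42.6 ± 1.94 to 51.2 ± 1.36 FPKM, though exons of CYFIP1 overlap those of NIPA2. WASL, which activates Arp2/3, fell from 18.9 ± 0.437 to 16.5 ± 0.517 FPKM. With any single library left out, the number that rose was 6 to 7. Without control library 1 or control library 2 the number that fell was 2.

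**Figure D3:**
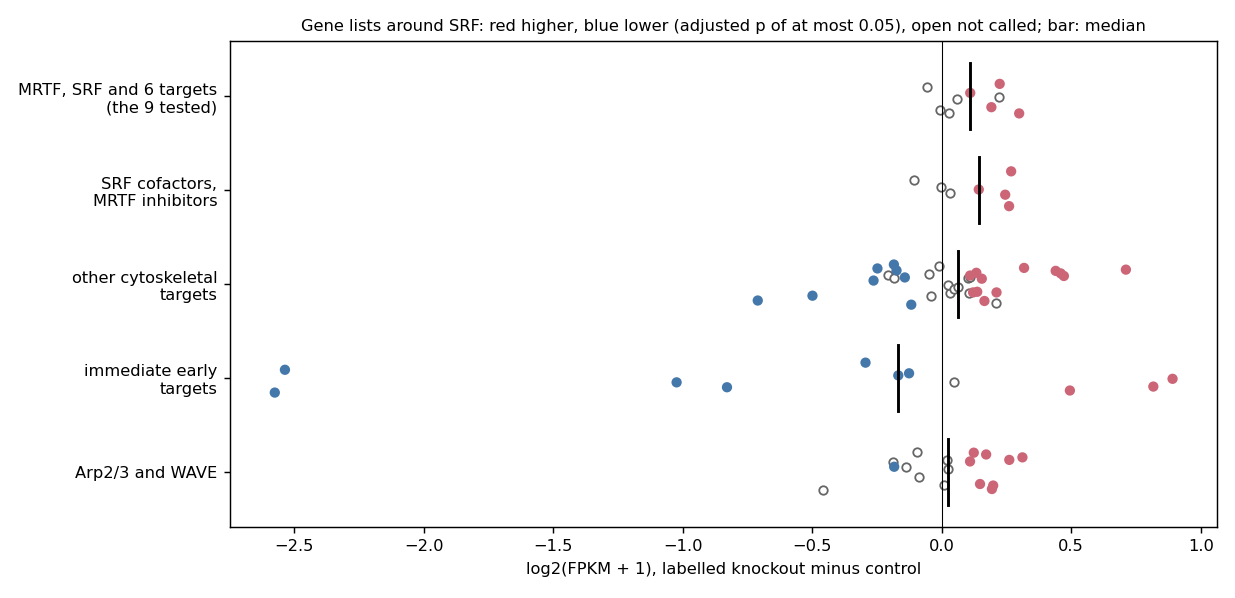
Difference of log2(FPKM + 1) for every tested gene of the 9 tested members and the 4 lists; red points rose, blue points fell, open points were not called, and black bars are medians. The members lie between -0.056 and 0.30, and the immediate early targets reach from -2.58 to 0.89, the latter being EGR3, which passed the filter only through the libraries labelled knockout.

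The genes whose 6 centred log2 values lay nearest to those of MRTFA, among 8767 genes averaging 5 FPKM or more, were SFXN1, ZCCHC10 and DEGS1, at root mean square distances of 0.0176, 0.0177 and 0.019. Nearest to SRF were CNOT9, RSRC2 and MTCH2, at 0.011, 0.0141 and 0.0175. None of these 6 genes is on the lists above.

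**Figure D4:**
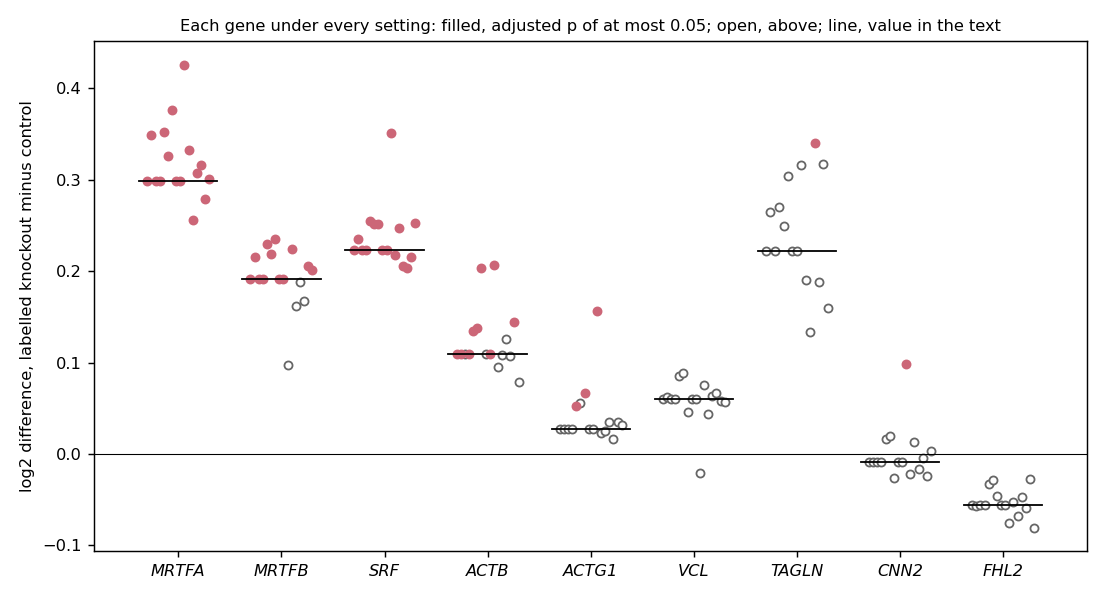
Log2 difference of each of the 9 tested genes under the settings run (TAGLN has none for the filter at 5 FPKM), with filled points at an adjusted p of at most 0.05 and the black line at the value given in the text. All points of MRTFA and SRF are filled, those of MRTFB and ACTB are mixed, VCL and FHL2 have none filled, TAGLN and CNN2 have 1 each and ACTG1 has 3.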

How the data were processed

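The authors deposited 1 table of FPKM (fragments scaled by transcript length and library total) for 6 libraries, as the labels and the file header state. HISAT2 2.2.1, StringTie 2.0.4 and the hg38 build are named in the submitters' processing notes. Library preparation used the VAHTS Universal V6 kit with paired-end reads of 150 bp, per the labels' protocols. The sources used here do not give settings, annotation, strand use or row filters. Low values showed no steps of whole reads (at most 0.93% of ratios between libraries within any 0.1% window), so the depth is unknown and intervals come only from the spread of 3 libraries per group.

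Genes averaging 1 FPKM or more entered a limma 3.58.1 fit (R 4.3.3) of log2(FPKM + 1) on group, with a variance trend, 2-sided, Benjamini-Hochberg adjusted over 11451 genes with a threshold of 0.05. Such differences understate the change of low genes. The fit was also run on simulated data with independent noise and few changed genes. That setting differs from these data, so the run does not speak to the calls given here. Shares were compared with the exact permutation test over 20 assignments. Coordinates and overlaps are from GENCODE 29 on GRCh38. The members and lists were chosen with earlier results of these data known. The rule named the members, RBM15, up to 3 genes of each list with the largest rise and up to 3 with the largest fall at 5 FPKM or more, and the 3 genes nearest in pattern to MRTFA and to SRF. Results of 1 further list and of 1 gene that the rule names are not reported here. Alternatives were no filter or one at 5 FPKM, 0.1 as pseudocount, the TPM scale (each library rescaled to a common sum), median centring, quantile normalization, no variance trend, a replicate block, removal of a GC and length trend, and leaving out each library. Tables and tests used scipy 1.17.1, numpy 2.4.6 and pandas 2.3.3 under Python 3.11.15, and plots used matplotlib 3.10.9.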

Additional observations from a re-analysis of the deposited data

How the results depend on the processing

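The number of members that rose was 2 to 4 when single libraries were left out, with 2 without control library 2 or knockout library 1, and 3 to 5 in the other settings; it was 0 for members that fell in every setting run. CNN2, near 0, changed sign with median centring (0.019), on the TPM scale (0.016) and with the GC and length trend taken out (0.098, limma adjusted p = 0.0213), and ranged from -0.024 to 0.013 when single libraries were left out. VCL changed sign only with that trend taken out (-0.020). The cause was not tested. With single libraries left out, 7 to 10 other cytoskeletal targets, 1 to 3 immediate early targets and 6 to 7 Arp2/3 and WAVE genes rose. In the same settings 1 to 2 Arp2/3 and WAVE genes fell. With the replicate number as a block, 4 members rose, RBM15 differed by 1.48 (limma adjusted p = 0.000317), and 2647 genes rose and 3135 fell. After group means were taken out, same-numbered libraries correlated at -0.0354, -0.0367 and 4.539e-05 across genes, and 0 of 6 matched its own number best. No pairing by number was therefore seen, but so few libraries cannot show whether same-numbered ones shared a culture or batch. Depth is unknown, so no limit from counting is given.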

Other observations

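Across the whole table, 137 tested genes had a CArG box in a start-site window of the kind described above, 1.5% of the 9137 tested genes with a window. Of these 29 rose and 45 fell in the libraries labelled knockout, so 54.0% changed, against 54.5% of all tested genes. Their median log2 difference was -0.016, against -0.018 over all tested genes. FLNA, which encodes the actin crosslinker filamin A, rose from 108 ± 3.74 to 135 ± 4.33 FPKM, and ACTN1, the alpha-actinin gene, from 61.9 ± 0.525 to 71.8 ± 2.09 FPKM. The tropomyosin gene TPM4 fell from 403 ± 8.24 to 371 ± 3.11 FPKM, and TGFB1I1, given above, from 9.05 ± 0.834 to 6.1 ± 0.257 FPKM. SMTN, another of the cytoskeletal targets, was not called (log2 difference -0.21). DET1, a ubiquitin ligase component whose exons overlap those of AC013489.1 on the same strand, passed the filter only through the controls. It had the largest called fall, from 1.92 ± 0.2 to 0.324 ± 0.244 FPKM. Next came EGR1, given above, and ING4, a chromatin-binding protein gene, which fell from 16.9 ± 0.427 to 8.13 ± 0.725 FPKM. The largest rise among the 137 was that of the kinase anchor gene AKAP12, from 5.19 ± 0.582 to 15.6 ± 0.128 FPKM. This search and the genes named from it were chosen after values were seen.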
